A study of Rattus norvegicus with 6 samples.

Results

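Genes whose transcripts were higher in every library of crushed rat pancreas than in either control library, with or without exosome treatment, are described here. They were chosen by their measured values, in deposited TPM, a transcript abundance scaled by gene length that sums to the same total in every library. Of 34001 genes in the table, 9066 had a mean of at least 2 TPM over the 6 libraries. A gene was kept if each of the 4 injured libraries held at least 2 times the larger of the 2 control values and if the mean of the exosome-treated libraries was under 2 times the larger TP value. The first condition was met by 246 genes, which is 2.71% of the 9066, and 27 of these failed the second. Another 100 were dropped by name (unnamed loci, and the Reg, Lcn, Timp, Ccl, Cxcl, Hmox, S100, Col, Anxa and Mt families), which left 119 rows with 110 distinct names. Because these values made the choice, the differences between groups below are descriptions and carry no test.

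The series holds RNA-seq of pancreas from 6 Sprague-Dawley rats, 2 in each of 3 groups, with tissue taken 24 h after surgery. Control rats underwent laparotomy with swab handling of the pancreas and a tail vein injection of 1 ml of saline. TP rats (traumatic pancreatitis) had the gland crushed by an impactor set at 3 cm2 and 10 kg and received the same saline. TP+hucMSC-Exs rats had that injury and were given exosomes (vesicles that cells shed) intravenously, 10 μg for each 100 g of weight, prepared from mesenchymal stem cells of human umbilical cord.

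The pancreas consists mostly of acinar cells, which make digestive enzymes. Crushing releases these enzymes into the tissue, and the sterile injury that follows draws in neutrophils and monocytes within hours. Those cells carry Fc receptors, lectins and scavenger receptors for uptake of debris. Stellate cells and fibroblasts lay down matrix that includes periostin, versican and collagen. Surviving epithelial cells reorganise their cytoskeleton and raise receptors linked to regeneration.

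The description "raised in all 4 injured libraries" held for 82 of the 119 rows. The other 37 had 0 TPM in both controls and 0 TPM in at least 1 injured library, so they passed only because 0 is at least 2 times 0. Of these, 35 were above 0 in TP replicate 2, 8 in TP replicate 1 and 6 in both exosome-treated libraries, and 19 were detected in no injured library other than TP replicate 2. They comprised 26 non-coding rows, 7 of them U6 small nuclear RNA, and 11 coding genes (Pole3, NEWGENE_2134, Wfdc18, Psme3, Igip, Vwa5a, Pigz, RGD1307182, Clec12a, Rsl1d1l1 and Psca). Their median length was 134 bases, against 1899 bases for the 9066 genes. The text below concerns the 82, of which 79 were coding and 3 non-coding.

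TP replicate 2 stood apart from the other 5 libraries. Relative to the mean of the controls on the scale of log2(TPM + 0.5), the median of the 9066 genes was 3.09 in TP replicate 2, 0.00 in TP replicate 1, and 1.03 and 1.29 in TP+hucMSC-Exs replicates 1 and 2. The summed TPM of 7 acinar enzyme markers was 499200 and 479500 in the controls, 450700 in TP replicate 1, 121900 in TP replicate 2, and 406700 and 374400 in the exosome-treated libraries. The labelled tissue therefore carried its defining markers in all 6 libraries. Because TPM share a fixed total, a smaller acinar share leaves more of that total to other genes. The part of this in the members' values was not tested. In such bulk samples fewer cells of a type and less RNA per cell cannot be told apart. Depth is unknown, so no counting error is given. The samples are described as separate rats.

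A value of at least 2 times the larger control was reached by 93.2% of the 9066 genes in TP replicate 2, by 46.3% in TP+hucMSC-Exs replicate 1 and by 65.0% in TP+hucMSC-Exs replicate 2, but by 3.3% (299 genes) in TP replicate 1. TP replicate 1 therefore largely decided which genes became members. Every injured library lay above both controls for 24.1% of genes. Applied without TP replicate 1, the same rule kept 3621 genes, and without TP replicate 2 it kept 26, of which 20 were among the 119 and 17 among the 82.

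Sequences are given for 5 members, because the members share an expression pattern and the printed stretches show where searched motifs fall near their starts. Of the 79 coding members, 60 matched a symbol in the RefSeq promoter table (rat build GRCr8), which covers 250 bases before and 50 bases after each gene's start. The promoters of Spp1 (chr14:5619755-5620054, minus strand), Tnfrsf12a (chr10:13213599-13213898, minus strand), C3ar1 (chr4:157756481-157756780, minus strand) and Slc16a3 (chr10:106712078-106712377, plus strand) stand for matrix, receptor, phagocyte and metabolic members. They are written from 5′ to 3′ along the gene, with searched motifs in capitals other than the GC box.
Spp1: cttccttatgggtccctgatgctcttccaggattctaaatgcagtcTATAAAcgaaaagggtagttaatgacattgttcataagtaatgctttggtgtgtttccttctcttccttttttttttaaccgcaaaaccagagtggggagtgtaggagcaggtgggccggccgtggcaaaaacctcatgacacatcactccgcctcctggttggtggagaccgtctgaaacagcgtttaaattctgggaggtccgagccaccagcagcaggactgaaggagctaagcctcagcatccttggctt
Tnfrsf12a: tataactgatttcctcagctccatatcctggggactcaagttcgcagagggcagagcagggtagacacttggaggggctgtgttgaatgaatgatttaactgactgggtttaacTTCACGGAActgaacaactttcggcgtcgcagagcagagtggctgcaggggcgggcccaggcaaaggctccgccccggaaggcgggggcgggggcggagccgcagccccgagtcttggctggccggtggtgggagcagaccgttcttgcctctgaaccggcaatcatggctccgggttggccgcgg
C3ar1: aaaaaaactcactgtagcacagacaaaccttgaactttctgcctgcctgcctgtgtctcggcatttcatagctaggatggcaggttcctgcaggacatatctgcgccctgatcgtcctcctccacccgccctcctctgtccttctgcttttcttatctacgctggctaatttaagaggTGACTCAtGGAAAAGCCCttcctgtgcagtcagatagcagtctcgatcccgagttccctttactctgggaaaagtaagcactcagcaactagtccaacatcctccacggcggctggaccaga
Slc16a3: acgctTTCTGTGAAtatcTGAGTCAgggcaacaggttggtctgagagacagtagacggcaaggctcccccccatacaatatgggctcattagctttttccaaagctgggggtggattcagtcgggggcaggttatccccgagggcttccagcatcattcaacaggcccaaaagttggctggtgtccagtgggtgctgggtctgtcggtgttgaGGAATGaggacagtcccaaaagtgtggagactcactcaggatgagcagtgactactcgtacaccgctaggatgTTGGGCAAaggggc
In C3ar1 an AP-1 match began 72 bases before the start and an NF-kappaB match, on the opposite strand, 64 bases before it. Slc16a3 held a STAT match followed by an AP-1 match, and a TEAD and a C/EBP match nearer the start. Tnfrsf12a held 1 STAT match, and the only capitals in Spp1 mark a TATA match 204 bases before the start.

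Searched motifs of inducible factors were found in at most 6 of the 60 matched members. Both strands were searched, and the share of the 60 matched members is given beside that of all 33469 promoters in the table. AP-1 (TGANTCA) was found in 5 members or 8.33% (C3ar1, Cebpe, Mcemp1, Pglyrp1 and Slc16a3) against 7.33%, the NF-kappaB motif in 3.33% against 1.53%, and STAT (TTCNNNGAA) in 8.33% against 8.87%. C/EBP (TTGCNNAA) was found in 10.0% against 10.6%, the antioxidant response element (TGACNNNGC) in 10.0% against 12.1%, TEAD (GGAATG) in 10.0% against 14.2% and ATF4 (TGATGNAA) in 3.33% against 3.98%. The cyclic AMP element (TGACGTCA) was in 0 of 60 members against 1.83%. A TATA match (TATAAA) occurred in 18.3% against 14.2%. The GC box (GGGCGG) occurred in 51.7% against 33.1%, or 44.9% of promoters once unnamed LOC genes, which the rule drops, were left out. On that narrower background the shares were 6.36% for AP-1, 1.57% for NF-kappaB, 8.08% for STAT, 10.2% for C/EBP and 12.9% for the antioxidant element. They were 12.6% for TEAD, 3.19% for ATF4, 2.23% for the cyclic AMP element and 12.3% for TATA. The members' shares for STAT and ATF4 were then slightly above it and not below. The AP-1 and antioxidant patterns share their first bases, and a match only describes letters in this window.

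The fifth sequence belongs to Mir675, the precursor of the microRNA that is processed from the H19 transcript. Its RefSeq hairpin (GRCr8, chr1:207161752-207161835, minus strand) is 84 bases long, the same length as the table's row. Its mature arms are shown with their seeds, bases 2 to 8, in capitals.
rno-miR-675-5p: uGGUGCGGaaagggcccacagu
rno-miR-675-3p: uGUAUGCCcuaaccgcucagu
The seeds of the arms differ. Libraries built from mRNA do not measure mature microRNAs, so the values of the row below concern the precursor's interval.

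**Figure D1:**
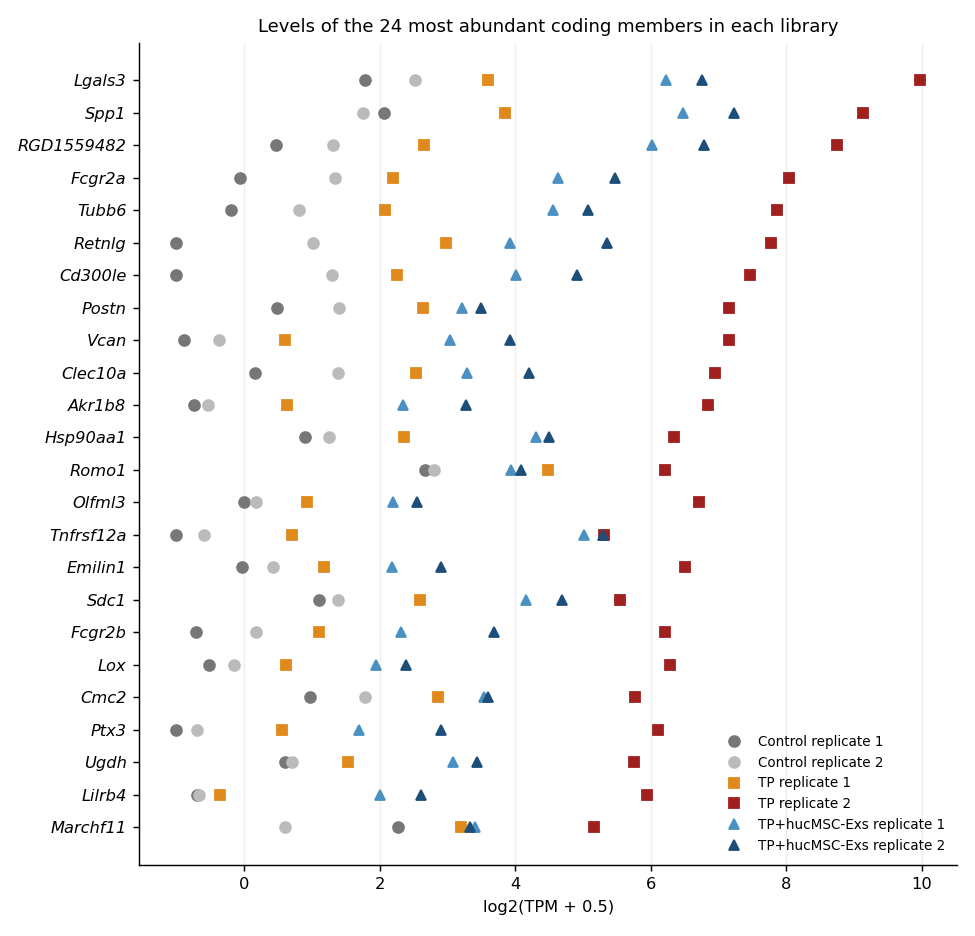
Levels of the 24 coding members with the highest mean over the injured libraries, as log2(TPM + 0.5) on the x axis with 1 row per gene and 1 point per library. TP replicate 2 lies farthest right in every row, and TP replicate 1 lies to the right of both controls, as the rule requires. The exosome-treated libraries lie between the TP libraries for most genes.

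Among coding members, the group with the largest summed level in all 6 libraries was matrix, adhesion and mesenchyme, with 16 genes. Their summed TPM was 12.95 and 18.73 in the controls, 55.89 in TP replicate 1, 2362 in TP replicate 2, and 235.3 and 356.3 in TP+hucMSC-Exs replicates 1 and 2. Every injured sum was above both control sums, and the TP libraries were the lowest and the highest of the injured 4. Lgals3 and Spp1 gave 1005.87 and 557.77 TPM of the 2362 in TP replicate 2, where the phagocyte group summed to 1557. The rank of the matrix group there rested on these genes. Their placing in it was a choice, since Lgals3 is also secreted by macrophages.

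Lgals3 encodes galectin 3, a lectin secreted by macrophages and stressed epithelium. It measured 2.95 and 5.23 TPM in the controls, 11.58 and 1005.87 in TP, and 74.6 and 107.98 after exosomes. It was the most abundant coding member in TP replicate 2, where its ratio to the larger control was 192.3, while in TP replicate 1 the ratio was 2.214. Spp1 encodes osteopontin, a secreted phosphoprotein that binds integrins and CD44. It measured 3.68 and 2.87 TPM in the controls, 13.95 and 557.77 in TP, and 88.79 and 149.97 after exosomes. Its lowest injured value was 3.791 times the larger control, a wider margin than that of Lgals3.

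Postn encodes periostin, a matricellular protein of activated fibroblasts, with 0.90 and 2.13 TPM in the controls, 5.74 and 142.3 in TP, and 8.78 and 10.74 after exosomes. Vcan encodes versican, a large proteoglycan of provisional matrix, with 0.04 and 0.27 TPM in the controls, 1.02 and 141.95 in TP, and 7.72 and 14.63 after exosomes. In both genes TP replicate 2 was far above the other injured libraries, and TP replicate 1 was the lowest of them. Lox, the lysyl oxidase that crosslinks collagen and elastin, measured 0.20 and 0.40 TPM in the controls, 1.04 and 77.51 in TP, and 3.33 and 4.75 after exosomes. Emilin1, a glycoprotein of elastic fibres, had 0.48 and 0.84 TPM in the controls, 1.77 and 90.4 in TP, and 4.03 and 6.98 after exosomes. The margin of Emilin1 in TP replicate 1 was 2.107, close to the 2-fold limit.

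Sdc1 encodes syndecan 1, a heparan sulfate proteoglycan of epithelial surfaces. It measured 1.64 and 2.12 TPM in the controls, 5.56 and 46.19 in TP, and 17.34 and 25.24 after exosomes. The exosome-treated mean was 0.826 of the TP mean (0.5 TPM added to both means, as in all ratios of group means here), while the median over the 16 genes of this group was 0.140. St6galnac4, a sialyltransferase of the Golgi, measured 1.27 and 2.20 TPM in the controls, 8.53 and 21.49 in TP, and 14.39 and 15.61 after exosomes. Its ratio of TP replicate 2 to the larger control, 9.768, was the smallest in the group. Its exosome-treated libraries both lay between the TP libraries, and the means of the TP and treated groups were nearly equal, at a ratio of 0.999. Ugdh, which makes the UDP-glucuronate used for matrix glycans, had 1.02 and 1.13 TPM in the controls, 2.40 and 53.38 in TP, and 7.97 and 10.34 after exosomes.

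The remaining matrix and mesenchyme members were low outside TP replicate 2. Olfml3, a secreted olfactomedin-domain protein, had 0.50 and 0.63 TPM in the controls and 1.41 in TP replicate 1, and reached 104.24 in TP replicate 2. Bmper (a BMP-binding protein), Angpt4 (an angiopoietin), Clmp (a junctional adhesion molecule), Lrrc17, B4galt2 (a galactosyltransferase) and Tcf21 (a transcription factor of mesenchymal progenitors) were between 0.00 and 0.30 TPM in the controls and between 0.11 and 0.69 TPM in TP replicate 1. At those levels a doubling is a difference of less than 1 TPM.

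Phagocyte receptors and granule genes formed the group with the most members, 18. Their summed TPM was 2.43 and 11 in the controls, 30.66 in TP replicate 1, 1557 in TP replicate 2, and 152.5 and 292.4 in TP+hucMSC-Exs replicates 1 and 2. In the controls, 9 and 16 of the 18 were above 0. In TP replicate 1, 12 of the 18 were under 1 TPM, and the median was 0.27 TPM.

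RGD1559482, annotated as similar to an immunoglobulin superfamily receptor, measured 0.89 and 1.99 TPM in the controls, 5.81 and 429.07 in TP, and 64.15 and 109.92 after exosomes. Fcgr2a, a receptor for the constant part of immunoglobulin G, measured 0.46 and 2.02 TPM in the controls, 4.06 and 262.27 in TP, and 24.16 and 43.69 after exosomes. Fcgr2a passed by the narrow ratio of 2.010 in TP replicate 1. Fcgr2b, the inhibitory Fc receptor, had 0.11 and 0.63 TPM in the controls, 1.65 and 73.63 in TP, and 4.46 and 12.39 after exosomes. Fc receptor, Cd300 and tubulin genes belong to families of similar copies, and how the submitters assigned shared reads is not given in the sources used here, so the split within each family is uncertain.

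Retnlg encodes a resistin-like protein of neutrophils. It was listed at 0.00 and 1.53 TPM in the controls, 7.38 and 217.08 in TP, and 14.69 and 40.47 after exosomes. Its margin of 4.824 was the widest among phagocyte genes above 1 TPM in TP replicate 1. Cd300le, an activating receptor of myeloid cells, was at 0.00 and 1.95 TPM in the controls, 4.26 and 176.58 in TP, and 15.68 and 29.55 after exosomes. Clec10a, a galactose-binding lectin of macrophages and dendritic cells, was at 0.62 and 2.12 TPM in the controls, 5.31 and 122.66 in TP, and 9.23 and 17.98 after exosomes. Both had a lower value in Control replicate 1 than in Control replicate 2, so the margin rested on the second control.

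C3ar1, the receptor for the complement fragment C3a, measured 0.13 and 0.18 TPM in the controls, 0.36 and 36.46 in TP, and 3.06 and 5.86 after exosomes. Msr1, a scavenger receptor of macrophages, measured 0.01 and 0.21 TPM in the controls, 0.51 and 45.11 in TP, and 3.41 and 6.10 after exosomes. C3ar1 sat on the 2-fold limit in TP replicate 1 and far above it in the other 3 injured libraries, so TP replicate 1 decided its membership. Lilrb4, an inhibitory leukocyte receptor, had 0.12 and 0.13 TPM in the controls, 0.28 and 60.84 in TP, and 3.49 and 5.6 after exosomes. Mcemp1, a membrane protein of granulocytes and mast cells, had 0.08 and 0.04 TPM in the controls, 0.26 and 27.27 in TP, and 3.28 and 7.24 after exosomes. Hk3, the hexokinase of granulocytes, had 0.00 and 0.01 TPM in the controls, 0.13 and 19.1 in TP, and 2.55 and 4.04 after exosomes. All 3 were near 0 in the controls, and their order among the injured libraries was the same.

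The other phagocyte members were the pattern receptor Clec4e (Mincle), the granule protein Pglyrp1, the granulocyte transcription factor Cebpe, the itaconate-producing enzyme Acod1, Cd300lb, Sirpd and RGD1563400. None exceeded 0.17 TPM in TP replicate 1, and Acod1 and RGD1563400 were listed at 0 in both controls. In TP replicate 2 these 7 ranged from 8.75 TPM (Pglyrp1) to 15.83 TPM (Clec4e).

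Cell type marker lists, which hold 1 member (Msr1), give the levels of the cells that could carry these transcripts. S100a8, on the neutrophil list, met the numerical conditions and was dropped by name. It measured 0.21 and 0.75 TPM in the controls, 1.77 and 238.74 in TP, and 27.62 and 51.79 after exosomes. The sum of 8 neutrophil markers was 0.54 and 3.24 TPM in the controls, 3.14 in TP replicate 1, 487.2 in TP replicate 2, and 57.39 and 105.3 after exosomes. Most of it in every library was S100a8 and S100a9, the latter at 197.2 TPM in TP replicate 2 and 26.18 and 45.68 after exosomes. Csf3r, Cxcr2, Fcgr3a and Mmp8 were above both controls in both exosome-treated libraries. Mpo had 0.03 and 0.17 TPM in the controls, 0.00 and 13.22 in TP, and 0.00 in both exosome-treated libraries. Elane was at 0 in both controls, TP replicate 1 and TP+hucMSC-Exs replicate 1. The sum of 8 macrophage markers was 18.15 and 54.48 in the controls, 39.25 and 1130 in TP, and 87.23 and 131.2 after exosomes. For both lists TP replicate 1 lay between the control libraries, and TP replicate 2 and the exosome-treated libraries lay above both. Fibroblast and stellate markers (5 genes) summed to 15.37 and 37.22 TPM in the controls, 36.96 and 2157 in TP, and 76.03 and 84.75 after exosomes, so that TP replicate 1 again lay between the controls. Adipocyte markers (7 genes) summed to 18.35 and 40.33 TPM in the controls, 19.54 and 6013 in TP, and 31.1 and 44.52 after exosomes. Duct markers (6 genes) went another way, at 16.35 and 18.76 TPM in the controls, 18.96 and 14.55 in TP, and 130.5 and 174.4 after exosomes. T cell markers (4 genes) summed to 0.00 and 28.52 TPM in the controls, 0.27 and 27.28 in TP, and 1.38 and 1.79 after exosomes. B cell markers (5 genes) summed to 0.09 and 18.61 TPM in the controls, 0.00 and 3.94 in TP, and 0.12 and 0.63 after exosomes. The controls thus differed in immune markers. For the neutrophil, macrophage and fibroblast lists, TP replicate 1 was above Control replicate 1 and below Control replicate 2. The part of these cell types in the members' values was not tested.

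**Figure D2:**
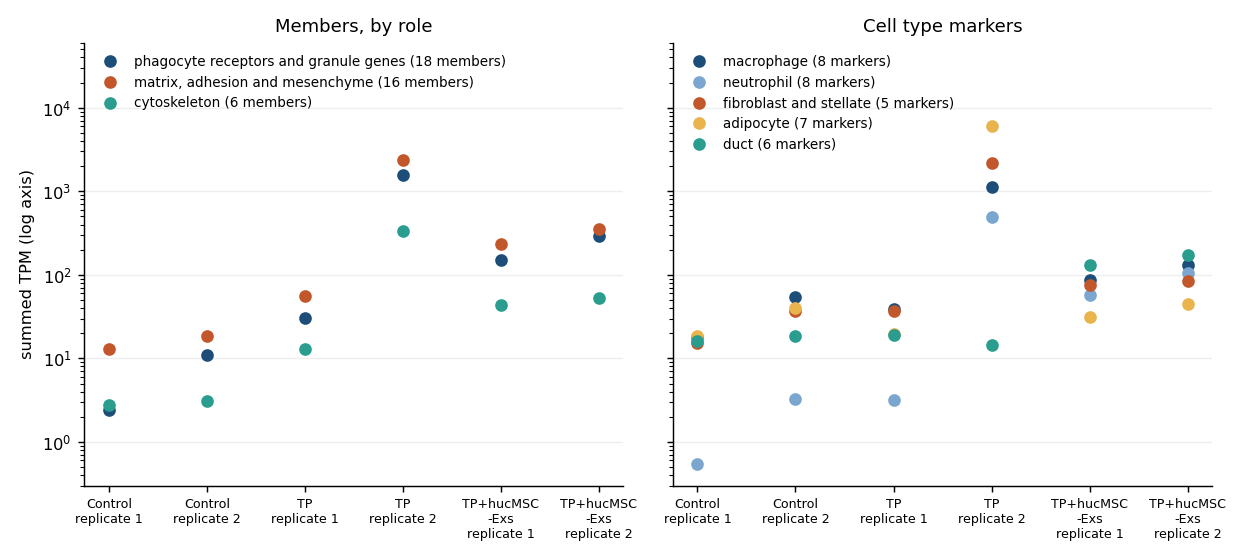
Summed TPM on a log axis for each of the 6 libraries, with 1 point per library for each of 3 groups of members in the left panel and each of 5 cell type marker lists in the right. The member sums of the injured libraries lie above both controls, as the rule requires, and the neutrophil, macrophage and fibroblast marker sums of TP replicate 1 lie between the controls.

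Receptors, signalling and secreted defence proteins numbered 9, with summed levels of 1.72 and 2.83 TPM in the controls, 11.79 and 231.2 in TP, and 50.13 and 75.16 after exosomes. Tnfrsf12a encodes Fn14, the receptor for the cytokine TWEAK, which is raised on injured epithelium. It was listed at 0.00 and 0.16 TPM in the controls, 1.13 and 39.25 in TP, and 31.77 and 38.71 after exosomes. Both exosome-treated libraries were thus close to TP replicate 2, and the treated mean was 1.727 times the TP mean. Among the 9066 genes, 9.76% had a higher mean after exosomes than in TP, and 5 of the 82 members did (Cenpv, Cttn, Lbp, Nradd and Tnfrsf12a), or 6.1%. The rule's upper limit lowers that share by construction: with the limit left out, 13 of 90 such rows had the higher mean after exosomes, or 14.4%.

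Lbp encodes the lipopolysaccharide-binding protein, an acute-phase reactant. It measured 0.19 and 0.46 TPM in the controls, 1.17 and 5.29 in TP, and 4.03 and 10.17 after exosomes. Nradd, a death-domain protein related to the neurotrophin receptor, measured 0.33 and 0.24 TPM in the controls, 0.78 and 4.63 in TP, and 4.06 and 7.79 after exosomes. In both genes the highest of the 6 values was TP+hucMSC-Exs replicate 2 and not TP replicate 2, and TP+hucMSC-Exs replicate 1 lay below TP replicate 2.

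Ptx3 encodes pentraxin 3, a soluble pattern-recognition protein made at sites of inflammation. It was listed at 0.00 and 0.12 TPM in the controls, 0.97 and 68.64 in TP, and 2.75 and 7.02 after exosomes. Il1rl1 encodes ST2, the receptor for the alarmin interleukin 33. It was listed at 0.02 and 0.00 TPM in the controls, 0.37 and 32.83 in TP, and 1.11 and 0.66 after exosomes. Il1rl1 had the lowest ratio of the exosome-treated mean to the TP mean of the 82, 0.081, followed by Angpt4, Lrrc17, Clmp and Olfml3, all under 0.1. In each of these 5 the TP mean rested on TP replicate 2.

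Adora2b, the low-affinity adenosine receptor, was at 0.02 TPM in both controls, 0.17 and 15.9 in TP, and 1.06 and 1.18 after exosomes. Asgr2, an asialoglycoprotein receptor, had 0.08 and 0.31 TPM in the controls, 1.32 and 34.18 in TP, and 0.94 and 2.03 after exosomes. Spry2, which restrains receptor tyrosine kinase signalling, had 0.61 and 0.79 TPM in the controls, 1.95 and 16.71 in TP, and 2.33 and 2.45 after exosomes. Unlike most members, Asgr2 was lower in TP+hucMSC-Exs replicate 1 than in TP replicate 1.

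The cytoskeleton contributed 6 members. Tubb6, a beta-tubulin, measured 0.37 and 1.26 TPM in the controls, 3.73 and 233.11 in TP, and 23.13 and 33.12 after exosomes. Tubb3, the class III beta-tubulin known from neurons, measured 0.16 and 0.11 TPM in the controls, 1.16 and 39.65 in TP, and 5.47 and 5.30 after exosomes. All injured values of Tubb3 were at least 7.250 times the larger control. Cttn, the actin-binding protein cortactin, measured 0.48 and 0.57 TPM in the controls, 2.04 and 10.6 in TP, and 8.10 and 4.97 after exosomes. Cdc42ep5, an effector of the GTPase Cdc42, had 1.12 and 0.59 TPM in the controls, 4.01 and 29.07 in TP, and 4.19 and 5.13 after exosomes. Septin5 and Ssx2ip, a septin and a centrosome and junction protein, were at 0.36 and 1.5 TPM in TP replicate 1.

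Of 12 members in redox, mitochondria and metabolism, 6 were above 1 TPM in TP replicate 1. Txnrd2, the mitochondrial thioredoxin reductase, measured 2.00 and 2.46 TPM in the controls, 11.9 and 15.18 in TP, and 8.87 and 10.83 after exosomes. It had the smallest ratio of TP replicate 2 to TP replicate 1 among the 82, 1.265 with 0.5 TPM added, whereas the groups' medians of that ratio ran from 3.520 to 29.63. Romo1, a small protein of the inner mitochondrial membrane, measured 5.83 and 6.47 TPM in the controls, 21.75 and 73.31 in TP, and 14.85 and 16.46 after exosomes. In both genes the exosome-treated libraries were below both TP libraries.

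Akr1b8, an aldo-keto reductase, had 0.10 and 0.19 TPM in the controls, 1.05 and 114.45 in TP, and 4.55 and 9.13 after exosomes. Slc16a3, the lactate exporter MCT4, had 0.04 and 0.15 TPM in the controls, 0.41 and 30.83 in TP, and 2.70 and 5.14 after exosomes. Steap1, a metalloreductase family member, was listed at 0 in both controls, at 0.16 and 18.72 TPM in TP, and at 0.89 and 1.32 after exosomes. Of these 3, only Akr1b8 reached 1 TPM in TP replicate 1. Cmc2 and Cmc4, small proteins of the mitochondrial intermembrane space, measured 6.76 and 8.88 TPM in TP replicate 1 against at most 2.93 and 2.08 in the controls. Hacd1, an enzyme of very long chain fatty acid synthesis, measured 0.31 and 0.41 TPM in the controls, 1.72 and 7.55 in TP, and 2.18 and 1.97 after exosomes. Arsi, Cyp11b3, Lyrm1 and Mboat1 were all under 1 TPM in TP replicate 1.

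Cell division and transcription contributed 8 members. Nr1d1 encodes REV-ERB alpha, a nuclear receptor that represses clock genes. It measured 1.94 and 1.99 TPM in the controls, 6.90 and 22.84 in TP, and 7.42 and 8.16 after exosomes. Its control values were close together, and its lowest injured value was 3.467 times the larger of them. Cenpv, a centromere protein, measured 0.97 and 1.22 TPM in the controls, 3.08 and 4.82 in TP, and 6.87 and 10.78 after exosomes. Both exosome-treated values of Cenpv were above both TP values, and its treated mean was 2.096 times the TP mean, the largest such ratio among the 82. Ccne1, the G1/S cyclin E1, had 0.06 and 0.29 TPM in the controls, 0.59 and 10.94 in TP, and 0.63 and 1.41 after exosomes. Pbk, a mitotic kinase, had 0.09 and 0.18 TPM in the controls, 0.43 and 10.85 in TP, and 0.47 and 0.43 after exosomes. For Pbk, 3 of the 4 injured libraries were nearly equal. Gtf2ird2, Tcea3, Polr3gl and Cenpm completed the group, with 0.65 TPM (Cenpm) to 2.61 TPM (Tcea3) in TP replicate 1.

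Among the 10 members of the last coding group, Hsp90aa1, the inducible cytosolic chaperone HSP90 alpha, measured 1.36 and 1.87 TPM in the controls, 4.62 and 80.4 in TP, and 19.33 and 22.09 after exosomes. Wbp1, which binds WW domains, was nearly level across the injured libraries, at 2.65 and 3.84 TPM in TP and 2.73 and 3.49 after exosomes, with 1.05 TPM in both controls. Glipr2 had 0.00 and 0.56 TPM in the controls, 1.13 and 35.29 in TP, and 3.12 and 5.6 after exosomes. Marchf11, a membrane ubiquitin ligase, had 4.33 and 1.02 TPM in the controls, 8.66 and 35.23 in TP, and 10.1 and 9.54 after exosomes, so its margin was set by Control replicate 1. Nol3, an inhibitor of cell death, Tmem167a, Lhfpl2, Prr7, Fbxw17 and RGD1311946 were the others.

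The non-coding rows were 5S_rRNA, SNORD79 and Mir675. The Mir675 row measured 1.26 and 1.62 TPM in the controls, 8.29 and 79.9 in TP, and 9.64 and 17.0 after exosomes, a margin of 5.117. The 5S_rRNA row, a ribosomal RNA with many copies, measured 197.43 and 244.2 TPM in the controls, 687.3 and 1200.79 in TP, and 830.26 and 783.34 after exosomes. SNORD79, a small nucleolar RNA, measured 3.51 and 5.45 TPM in the controls, 16.02 and 57.65 in TP, and 15.0 and 20.74 after exosomes. All 3 rows are under 300 bases, and libraries built from mRNA are not designed for such non-coding transcripts. The coding members Cmc2, Cmc4, Romo1 and Tmem167a were also listed under 300 bases, at 240, 204, 240 and 216. TPM are scaled by gene length, so the levels of these coding rows depend on the lengths listed.

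Over the 82 members the pattern across libraries was largely the pattern of all genes. TP replicate 2 was the highest of the 6 libraries for 79 of 82, against 92.2% of the 9066 genes, the exceptions being Cenpv, Lbp and Nradd. TP replicate 1 was the lowest injured library for 70 of 82, against 91.0%. Both exosome-treated libraries lay between the TP libraries for 67 of 82 (81.7%), against 88.9%. TP+hucMSC-Exs replicate 2 exceeded replicate 1 for 73 of 82 (89.0%), against 86.4%. Control replicate 2 was the larger control for 67 of 82, while 92.5% of genes were higher in Control replicate 2 than in replicate 1. These shares describe libraries and not the members in particular.

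**Figure D3:**
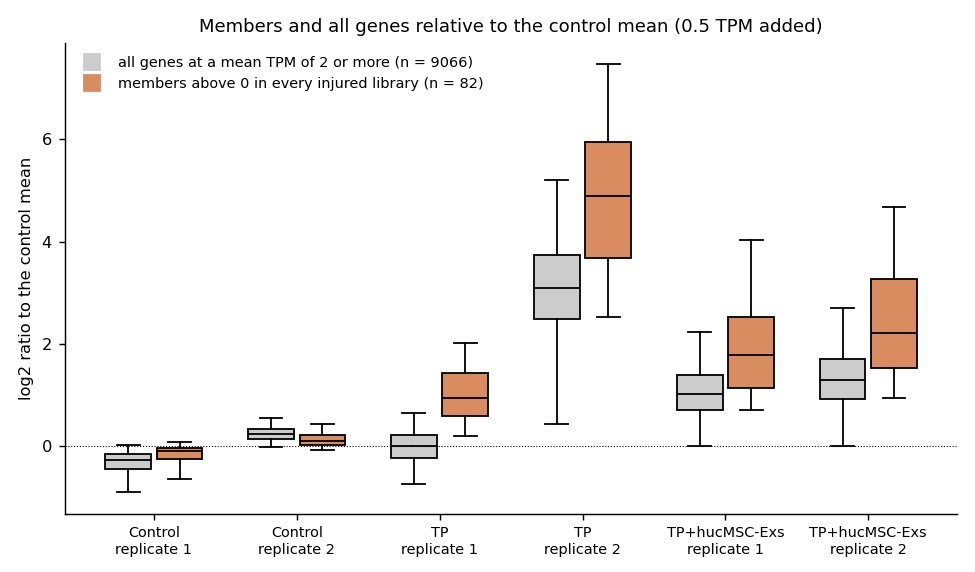
Log2 ratio to the control mean (0.5 TPM added) for each library on the x axis, for the 82 members and for the 9066 genes. Medians of the members are 0.95 in TP replicate 1, 4.89 in TP replicate 2, and 1.79 and 2.21 in the exosome-treated libraries, beside 0.00, 3.09, 1.03 and 1.29 for all genes.

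Relative to the median gene of the same library, the members stood 0.95 higher on the log2 scale in TP replicate 1, 1.80 in TP replicate 2, and 0.76 and 0.92 in TP+hucMSC-Exs replicates 1 and 2. All 82 were above the median gene in TP replicate 1, and 72, 67 and 69 were in the other injured libraries in the same order. In all 4 libraries 19 of the 82 (23.2%) were at least 1 log2 unit above the median gene, as were 0.54% of the 9066. These 19 were Akr1b8, Cd300le, Clec10a, Fcgr2a, Fcgr2b, Glipr2, Hsp90aa1, Lgals3, Mir675, Postn, Ptx3, RGD1559482, Retnlg, Sdc1, Spp1, Tnfrsf12a, Tubb3, Tubb6 and Vcan. The rule chose on these same values, so the share describes how much of the choice remains once each library's shift is taken out. Tnfrsf12a stood 1.49 and 3.01 above the median gene in TP and 4.77 and 4.79 above it after exosomes, while Postn stood 1.63 and 3.06 above it in TP and 1.17 and 1.19 after exosomes. Spp1 stood 1.94 and 4.12 above it in TP and 3.54 and 4.02 after exosomes, and Retnlg 2.64, 4.34, 2.56 and 3.72 in the same order. Relative to the median gene, Postn was thus lower in both exosome-treated libraries than in both TP libraries, and Tnfrsf12a was higher.

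Under median-of-ratios scaling, which takes a library-wide shift out before the rule is applied, the rule kept 60 rows, 24 of them among the 82. The 24 included Lgals3, Spp1, Vcan, Postn, Lox, Emilin1, Olfml3, Fcgr2a, Fcgr2b, Msr1, C3ar1, Retnlg, Ptx3, Tubb3, Tubb6, Hsp90aa1, Akr1b8, Slc16a3 and Mir675. Of the 82, 35 no longer reached 2 times the larger control in every injured library, and 34 had a scaled mean under 2. For 22 of the 34 the scaled mean was the only condition failed, so these still reached 2 times the larger control. Nr1d1, Romo1 and Txnrd2 were among the 35: their lowest injured value, scaled, was 0.787, 0.701 and 0.508 of the larger control, so they were not raised in every injured library on that scale. For Sdc1 that ratio was 1.884. Tnfrsf12a kept a ratio of 9.542 and left only through the upper limit, since its scaled exosome-treated mean was 3.668 times the larger TP value.

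**Figure D4:**
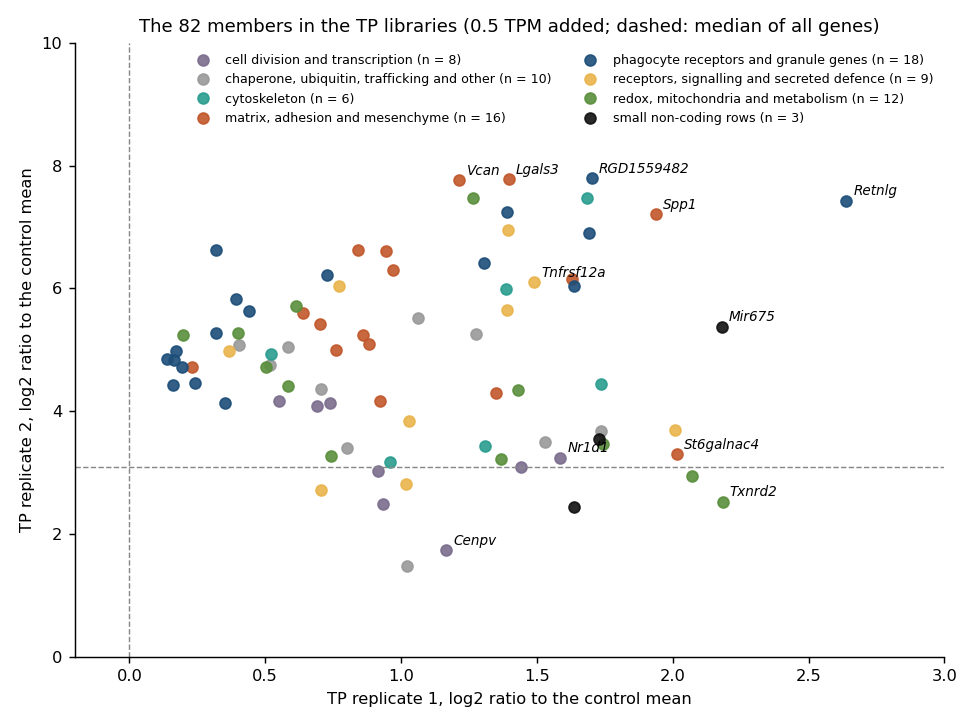
Each of the 82 members by its log2 ratio to the control mean in TP replicate 1 (x axis) and TP replicate 2 (y axis), coloured by group, with 0.5 TPM added and dashed lines at the medians of all genes, 0.00 and 3.09. Most members lie above 3.09 in TP replicate 2, and those nearest to equal values, such as Txnrd2, lie low.

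The members were also low in abundance. In TP replicate 1, 37 of the 82 were under 1 TPM, 24 were under 0.5 TPM and 18 reached 5 TPM. The larger control was under 1 TPM for 54. With 0.5 TPM added to every value before the ratios, 28 rows passed, all among the 82, and Mir675, Retnlg, Spp1, St6galnac4, Txnrd2 and Nr1d1 had the widest margins. All 4 injured libraries were at least 3 times the larger control for 29 members and at least 4 times for 13 (Adora2b, Akr1b8, Angpt4, Arsi, Bmper, Hacd1, Hk3, Il1rl1, Mir675, Ptx3, Retnlg, Tnfrsf12a and Tubb3). Just inside the 2-fold limit were C3ar1 (2.000), Marchf11 (2.000), Tmem167a (2.006), Fcgr2a (2.010) and Glipr2 (2.018), and just outside were Bri3 (1.995), Efemp2 (1.995), Poll (1.992), Hes1 (1.990) and Plpp1 (1.984). Nearest the upper limit, the exosome-treated mean over the larger TP value was 1.831 for Cenpv, 1.342 for Lbp and 1.280 for Nradd, and beyond it lay A2m (3.738), Dlgap1 (5.628) and Sectm1b (5.807).

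Gene lists for injured pancreas place the members within their pathways. Of 33 matrix, adhesion and plasminogen activation genes at a mean of 2 TPM or more, 5 were at least 2 times the larger control in TP replicate 1, 32 in TP replicate 2, and 31 in each exosome-treated library, and those 5 were all members (Lgals3, Lox, Vcan, Spp1 and Sdc1). Of 30 phagocyte genes the counts were 3, 30, 22 and 22 in the same order of libraries, with Msr1, Fcgr2b and Clec4e as members. Of 32 NF-kappaB and cytokine genes they were 2, 32, 20 and 26, with Tnfrsf12a and Il1rl1 as members. Of 50 actin and tubulin genes they were 1, 49, 39 and 44, with Tubb6. The shares passing in TP replicate 1 were 15.2% of the matrix, 10.0% of the phagocyte, 6.25% of the NF-kappaB and 2.0% of the actin and tubulin list, beside 3.3% of all genes. The rule chose on these same values, and the lists were written with earlier results of these data known. The list counts here and in the next paragraph are therefore descriptions and carry no test.

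Other lists held 1 member or 0. Of 26 genes of the integrated stress response, 26 of the immediate early AP-1 response, 18 of gp130 cytokines, 28 of lysosomes and 30 of the interferon response, 0 reached 2 times the larger control in TP replicate 1, where the 3.3% of all genes would amount to about 1 gene a list or fewer. Of 24 acute-phase and complement genes 7 did (Lbp, Clu, Itih4, Hpx, Hamp, A2m and Cfi, with Hamp at 0 in that library and both controls), and only Lbp was a member. Of 26 epithelial and junction genes 3 did (Cldn10, Muc1 and Tspan1), and 25 and 24 did in the exosome-treated libraries, but 9 in TP replicate 2.

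A linear model over all 11477 genes with a mean of 1 TPM or more gave few calls. With limma and a Benjamini-Hochberg threshold of 0.05, 6 genes were higher in TP than in Control (0.0523%) and 0 were lower (0%), with 466 at an unadjusted p under 0.05 in either direction. For exosomes against TP, 6 were higher (0.0523%) and 2 lower (0.0174%). For exosomes against Control, 24 were higher (0.209%) and 0 lower (0%), with 338 at an unadjusted p under 0.05. Within the lists, 0 genes were called in TP against Control, Clu, Hpx, Nupr1 and Try5 were called for exosomes against TP, and Clu, Hpx, Hamp, Nupr1, Cldn4, Tspan1, Wfdc2, Try5 and Tnfrsf12a for exosomes against Control. Tnfrsf12a is a member and was chosen on this contrast, so its call is no support. The TP libraries' difference enters the variance of all 3 comparisons.

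Annotation words and gene length were not themselves used to choose the members. The name filter, however, dropped whole families such as Timp, Ccl, Cxcl and Col. The shares of words below are therefore not independent of the choice, and they carry no test. The word "extracellular" stood in the annotation of 17 of 79 coding members (21.5%), against 7.66% of 8657 annotated genes. "Wound healing" stood with 4 (5.06%, against 0.82%), "cell adhesion" with 5 (6.33%, against 2.95%) and "cytokine" with 5 (6.33%, against 2.96%). "Transcription" was less frequent, at 8.86% against 14.8%, as was "ubiquitin", at 2.53% against 8.10%, and "ribosom" occurred in 0 of 79, against 4.32%. Shares for "mitochondri" (11.4% and 11.6%) and "plasma membrane" (17.7% and 15.8%) were near those of all genes. The median length of coding members was 1758 bases, against 1899 for all 9066.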

How the data were processed

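Gene-level TPM were used as deposited by the authors, 1 column per library. Per the labels' protocols, RNA was column-purified and libraries were made with a SMARTer mRNA kit; the sources used here name no aligner or quantification program. GRCm38 and mm10, both mouse builds, appear in the submitters' processing notes, yet 32883 rows carry rat Ensembl identifiers, and the annotation used was not settled. Columns were matched to samples by name and replicate number; the number 20 in the TP column names is unexplained by the labels. Each column sums to 1000000 TPM within rounding, so the depth is unknown and no counting error was given.

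The membership rule was applied with pandas 2.3.3 in Python 3.11.15 to all 34001 rows. Members, gene lists, markers, motifs and roles were chosen with earlier results of these data known. Named members were those with the widest margins, the highest levels, the most and least different TP libraries or group means, those nearest the limits and those on gene lists; others were named to complete a group, after their values were seen. Log ratios used log2(TPM + 0.5). Limma 3.58.1 in R 4.3.3 fitted 1 model over 6 libraries with a variance trend, which left 3 residual degrees of freedom, and was tested on simulated data. Moderation gave infinite prior degrees of freedom, so its p-values rest on a variance pooled over genes of like abundance, from 2 rats a group. Alternatives were other pseudocounts, filters, fold limits, scalings, a replicate block and each library left out. The values of 1 member are not reported here; it is counted in the totals.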

Additional observations from a re-analysis of the deposited data

How the results depend on the processing

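The rule kept 119 rows. It kept 58 with a mean of 5 TPM or more, 286 at 1.5 times, 69 at 3 times, 53 at 4 times, 28 with 0.5 TPM added, 219 without the name filter, 230 against the control mean, 60 under median-of-ratios scaling (36 shared) and 72 under quantile normalization (41 shared). With TPM rescaled without the acinar enzymes it kept 106, of which 82 were among the 119 and 45 were among the 82 rows above 0. It kept 26 to 3621 with 1 library left out: 26 without TP replicate 2, 3621 without TP replicate 1 and 1265 without Control replicate 2. The median log2 difference of the 119 was 2.83 for TP minus Control (0.75 to 5.10 with 1 library left out, the extremes without TP replicate 2 and TP replicate 1), and 1.70, 2.01 and 1.23 under median-of-ratios scaling, quantile normalization and against the median gene. For exosomes minus Control it was 1.63, and 2.47 and 1.18 with pseudocounts of 0.1 and 1, 0.89 and 1.10 under median-of-ratios and quantile scaling, 0.31 against the median gene (1.43 to 1.72 with 1 library left out) and 1.93 over the 82 rows above 0, an alternative chosen after seeing the data. For exosomes minus TP it was -1.10, from -3.21 without TP replicate 1 to 0.61 without TP replicate 2, where its sign turned, and -0.58, -0.60 and -0.82 under those 3 scalings.

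Limma called 6 genes for TP against Control, 8 for exosomes against TP and 24 for exosomes against Control. A pseudocount of 0.1 gave 14 in the first, and of 1 gave 12 in the third. Without a filter all 3 counts were 0 (160, 315 and 368 genes at an unadjusted p under 0.05). Median-of-ratios scaling gave 0 (668 unadjusted), 2 and 2, and quantile normalization gave 0 in each (642, 983 and 1100 unadjusted). With 1 library left out the counts ran from 0 to 10706, 0 to 9537 and 1 to 6031, the highest without TP replicate 1; the 3 counts without TP replicate 2 were 20, 219 and 6019. With the replicate number as a block they were 10, 22 and 35. Deviations of same-numbered libraries correlated at 0.279 (Control and TP), 0.08 (Control and exosomes) and 0.135 (TP and exosomes), so the libraries were taken to share only a number. TPM carry no depth, which leaves values under 1 TPM without an error.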

Other observations

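Nr1d1 belongs to the circadian clock, and 15 other clock genes were chosen after its values were seen. Dbp, an output gene that the clock activators drive in daily cycles, measured 12.96 and 13.87 TPM in the controls, 20.22 and 58.65 in TP, and 23.23 and 25.64 after exosomes. Bhlhe41, Ciart and Npas2 also had every injured library above both controls, which makes 4 of 15 (26.7%). The 24.1% given above for all genes covers only genes with a mean of 2 TPM or more. Bhlhe41, Ciart and Npas2 had means of 1.288, 1.37 and 0.205 TPM, so these shares cannot be set side by side. Arntl, the activator that REV-ERB alpha represses, measured 0.23 and 0.59 TPM in the controls, 0.11 and 5.25 in TP, and 0.70 and 1.12 after exosomes. It was thus below both controls in TP replicate 1 and above both in the other injured libraries. In TP replicate 1, Cry1 was at 0.52 TPM against 1.06 and 1.73 in the controls, and Per1 at 1.15 TPM against 1.91 and 2.58. Per2, Tef and Nfil3 were also below both controls in TP replicate 1, and Clock, Cry2, Nr1d2 and Per3 lay between them. Hlf was at 0.00 and 0.05 TPM in the controls, 0.16 and 2.43 in TP, and 0.05 and 0.06 after exosomes. The hour at which tissue was taken is not given in the sources used here, and its part in these values was not tested.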
